A study of Mus musculus with 32 samples.

Results

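Mature oligodendrocytes (MOLs) that carry transcripts of Klk6 were examined in the median eminence (ME) of mice. A cell was a member when Mal, Ermn and Opalin together gave at least 20 unique molecular identifiers (UMIs, each counting 1 captured transcript) and Klk6 gave at least 1. Of 5982 cells, 654 passed the first condition (MOLs) and 58 of these passed the second, which is 8.87% of the MOLs (95% exact Clopper-Pearson interval 6.80 to 11.3) and 0.970% of all cells. The other 596 MOLs, without a Klk6 UMI, were the comparison cells. Both groups were chosen by these measured values (UMIs of Klk6, Mal, Ermn and Opalin), so all that follows describes these cells and carries no test.

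The cells came from male C57B/L6 mice aged 40 to 47 days. The ME of 5 mice killed after an overnight fast (16 h) was pooled, and so was that of 5 mice given chow again for 1 h after such a fast. The tissue was dissociated with papain and sorted for live nucleated cells, and each condition had 2 droplet libraries. No transgene or deletion was involved. Each barcode carries a number, 1 to 4, which no label ties to fasting or refeeding, so fasted and refed cells are described together. The 4 barcode numbers are used only as parts of 1 pooled matrix, and what they stand for is not stated.

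Oligodendrocytes wrap axons in myelin, a stack of membrane made of a few abundant proteins and of lipids rich in cholesterol. Once mature they are not uniform across the nervous system. Klk6 encodes kallikrein-related peptidase 6, a secreted serine protease known for its expression in oligodendrocytes of white matter and spinal cord. Mal and Opalin encode membrane proteins of the myelin sheath, and Ermn encodes ermin, a cytoskeletal protein of its outer tongue.

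Klk6 lies on chromosome 7, 43824499 to 43832030, forward strand of GRCm38, by the GENCODE vM21 annotation. RefSeq gives 2 starts of the gene. Their windows, from 250 bases before to 50 bases after each start, are shown because Klk6 defines the cells, followed by the windows of Ptgds, which was far lower in cells rich in Klk6, and of Hmgcs1, from the cholesterol synthesis genes that were higher in the members. Capitals in the first 3 mark the SOX cores ACAAAG and ACAATG, and capitals in Hmgcs1 mark a sterol regulatory element, TCACNCCAC, each searched on both strands. The first window is chr7:43824294-43824593 (forward strand), the second chr7:43825200-43825499 (forward strand), that of Ptgds chr2:25469700-25469999 (reverse strand) and that of Hmgcs1 chr13:119690101-119690400 (forward strand), all GRCm38.p6.
Klk6, first start: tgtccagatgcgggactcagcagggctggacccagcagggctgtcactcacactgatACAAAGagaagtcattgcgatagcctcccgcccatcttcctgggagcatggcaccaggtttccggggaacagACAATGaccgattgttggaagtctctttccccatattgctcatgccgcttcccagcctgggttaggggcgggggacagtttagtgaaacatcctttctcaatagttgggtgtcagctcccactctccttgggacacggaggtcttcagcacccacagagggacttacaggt
Klk6, second start: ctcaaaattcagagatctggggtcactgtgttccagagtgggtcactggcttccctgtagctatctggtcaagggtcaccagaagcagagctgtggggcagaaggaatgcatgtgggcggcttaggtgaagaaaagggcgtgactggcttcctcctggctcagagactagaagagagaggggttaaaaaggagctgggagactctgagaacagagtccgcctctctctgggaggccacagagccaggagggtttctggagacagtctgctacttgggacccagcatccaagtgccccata
Ptgds: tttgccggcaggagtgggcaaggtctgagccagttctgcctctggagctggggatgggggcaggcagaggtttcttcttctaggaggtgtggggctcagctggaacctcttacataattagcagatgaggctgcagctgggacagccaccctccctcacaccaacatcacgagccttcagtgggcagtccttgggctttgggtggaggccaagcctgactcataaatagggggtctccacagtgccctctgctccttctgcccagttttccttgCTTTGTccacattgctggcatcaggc
Hmgcs1: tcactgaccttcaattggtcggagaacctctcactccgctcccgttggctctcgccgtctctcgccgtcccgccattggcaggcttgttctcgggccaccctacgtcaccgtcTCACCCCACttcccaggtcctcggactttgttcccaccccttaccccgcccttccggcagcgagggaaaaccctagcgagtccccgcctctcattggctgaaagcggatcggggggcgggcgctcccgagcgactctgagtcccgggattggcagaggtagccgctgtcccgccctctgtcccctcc
The first Klk6 window held 2 SOX cores, the second held 0 and the Ptgds window held 1. The window of S100b, a gene higher in the members, was searched too and held 0. Of 32851 windows in the RefSeq table, 28.6% held either SOX core and 1.24% held the sterol element. Windows were found for 12 of the 18 cholesterol synthesis genes, and Hmgcs1 was the only 1 of the 12 with the sterol element in these bases.

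The members were spread over the barcode numbers. They were 13 of 169 MOLs (7.69%) in number 1, 11 of 128 (8.59%) in number 2, 18 of 180 (10%) in number 3 and 16 of 177 (9.04%) in number 4, and all 4 intervals overlapped. The members held 524578 UMIs and the comparison cells 3962843. Members were the deeper cells, with 5408 UMIs in the shallowest, 8192.5 in the median and 22834 in the deepest cell, against 2487, 6019 and 19182. Among the 135 MOLs with at least 8000 UMIs, 32 were members (23.7%), and after every cell was thinned to 2000 UMIs, Klk6 was still seen in 35 of the 654 MOLs (5.35%). Depth and Klk6 thus moved together, so log2 ratios in thinned cells are given for the leading genes. The median share of mitochondrial UMIs was 3.64% in members and 4.94% in comparison cells. Scrublet called 1 member and 9 comparison cells as doublets, and of 21 barcode sequences found in more than 1 number none belonged to a member. The barcode numbers stood apart in Hspa1a, an inducible chaperone, at 12.4, 14.2, 263 and 252 CPM in the comparison cells of numbers 1 to 4 (CPM, UMIs of a gene per 1000000 UMIs of the summed cells), so that main results are also given number by number.

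The rule left few Klk6 UMIs outside the members, which held 817 of all 865 Klk6 UMIs (94.5%). Outside the MOLs, 46 of 5328 cells had Klk6 (0.863%), with 48 UMIs in all and no more than 2 in a cell. The share was 0.571% in microglia, immune cells of the brain that should lack it (3 of 525 cells, median depth 3097 UMIs), and 0.316% in astrocytes (3 of 949, median 2754 UMIs). Among differentiating oligodendrocyte progenitors it was 0 of 128 cells, which allows a share of cells with a UMI of up to 2.34% (3 counts), at a median of 9065 UMIs. No Klk6 was seen in the 12 MOLs just inside the threshold, with 20 to 24 UMIs of the 3 genes, nor in the 7 cells with 10 to 19. Of 12 cells with 5 to 9 such UMIs, 2 had Klk6.

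The number of Klk6 UMIs per member ran from 1 through a median of 3 to 94. A single UMI was seen in 20 members, 2 to 4 in 11 and 5 or more in 27. Cells outside the MOLs had Klk6 at 1.94 CPM, and how many of the 20 belong to such a background was not tested. The 27 cells with 5 or more were 4.13% of the MOLs (2.74 to 5.95) and counted 7, 4, 7 and 9 in barcode numbers 1 to 4. The 10 members with at least 30 UMIs held 69.4% of the members' Klk6. The summed level was 1557 CPM (1452 to 1668) (95% exact Poisson interval, which covers counting error only), and 1719.9, 1382, 1651 and 1439 CPM in barcode numbers 1 to 4. All 4 numbers thus held cells at both ends of this range.

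**Figure D1:**
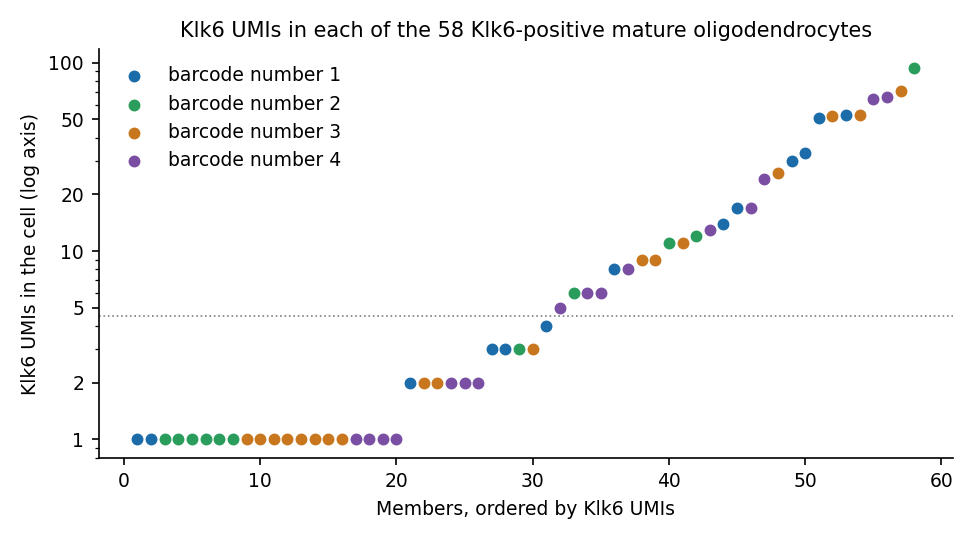
Klk6 UMIs in each of the 58 members (y axis, log scale), ordered along the x axis and coloured by barcode number. The dotted line separates the 31 cells with 1 to 4 UMIs from the 27 with 5 or more, and every barcode number has cells on both sides.

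The members carried the markers of myelinating cells. Mbp, myelin basic protein, stood at 7808 CPM (7571 to 8051) in members and 8247 CPM (8157 to 8337) in comparison cells, and Mog, a glycoprotein of the outer myelin surface, at 2478 and 2285 CPM. Ermn was close in the groups, at 2291 and 1871 CPM. Mal was lower in members, at 2939.5 CPM (2795 to 3090.0) against 4911 CPM (4842 to 4980.1). Opalin differed most of the 3 genes used in the rule, at 456 CPM (399.7 to 517) against 1886 CPM (1844 to 1929.5). Its median was 10 UMIs in a comparison cell, 1 in a member and 0 in a cell with 5 or more Klk6 UMIs, where the highest count was 4. Mal, Ermn and Opalin chose the cells, so of these genes Mbp and Mog alone bear on the label of mature oligodendrocyte. The cells with 5 or more Klk6 UMIs had 0 to 4 UMIs of Opalin.

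Differences over genes were expressed as the log2 ratio of (CPM + 10) between the summed members and the summed comparison cells, for 7015 genes with at least 50 UMIs over both groups. Of these, 138 (1.97%) were higher in members by 1 log2 unit or more and 128 (1.82%) were lower, together 266 (3.79%), and the median over all genes was 0.02. By 2 log2 units or more 20 were higher (0.285%) and 7 lower (0.0998%). The higher genes were 51.9% of the 266, and 40.7% when the 20 most abundant genes were left out of the scaling, which shifted the median to -0.03. Of the 138, 126 (1.8% of the 7015) were higher in all 4 barcode numbers, and of the 128, 124 (1.77%) were lower in all 4. For genes with no UMI in members, being lower in all 4 followed from counts in the comparison cells alone. Every number of the members lay above every number of the comparison cells for 524 genes (7.47%) and below for 487 (6.94%).

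S100b, a calcium-binding protein of glia, had the highest log2 ratio of (CPM + 10) outside the rule, while genes with few UMIs in comparison cells, such as Nkx2-9 and Rab37, had a higher plain fold. It stood at 1756 CPM (1644 to 1873) in members and 100.2 CPM (90.6 to 111) in comparison cells, a 17.5-fold difference (log2 4.0). In barcode numbers 1 to 4 it was 1822, 1706, 1658 and 1827 CPM in members and 79.5, 98.4, 87.2 and 134 CPM in comparison cells, with no overlap. The lowest, median and highest count were 0, 11 and 73 UMIs in a member and 0, 0 and 14 in a comparison cell. The log2 ratio was 3.90 at 2000 UMIs per cell, where S100b was seen in 69.0% of members and 15.8% of comparison cells.

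The genes that followed had varied roles. Anxa5, a calcium-dependent binder of membrane phospholipids, was at 467 CPM (410.4 to 529) in members and 47.4 CPM (40.9 to 54.7) in comparison cells (log2 3.05). In barcode numbers 1 to 4 Anxa5 was 493, 523, 483 and 394 CPM against 45.0, 63.4, 47.4 and 38.5 CPM. Mgst3, a microsomal glutathione transferase, was at 369.8 CPM (319.6 to 426) against 27.5 CPM (22.6 to 33.2) (log2 3.34). Both were apart in every barcode number. Of 7 annexins and S100 proteins measured, S100b and Anxa5 were the 2 higher by 1 log2 unit, beside 1.97% of all genes, and the lowest was Anxa2, at log2 -0.61 from 4 UMIs in members. Cd59a, a membrane inhibitor of complement, reached 128 against 16.9 CPM (log2 2.36). In thinned cells the log2 ratio was 3.10 for Anxa5 and 3.08 for Mgst3.

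Regulators of transcription and of the cell cycle were among them. Nkx2-9, a homeobox transcription factor, gave 57 UMIs in the 58 members and 4 in the 596 comparison cells (log2 3.43). The 57 UMIs lay in 17 of the members. Its members' level was 195, 105, 47 and 98.6 CPM in barcode numbers 1 to 4, and no number of the comparison cells exceeded 1.89 CPM. Cdkn1c, an inhibitor of cyclin-dependent kinases, was at 208 CPM (171 to 251) against 12.9 CPM (9.58 to 16.9) (log2 3.25). The small GTPase gene Rab37 gave 45 UMIs against 5 (log2 3.09). In thinned cells the log2 ratio was 3.01 for Nkx2-9, 2.98 for Cdkn1c and 2.76 for Rab37. These ratios rest on few UMIs. After thinning, Nkx2-9 was seen in 8 members and 1 comparison cell, Cdkn1c in 13 and 11, and Rab37 in 5 and 2.

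Enpp6, a choline phosphodiesterase known as a marker of newly formed oligodendrocytes, was at 383 CPM (332 to 440.0) in members and 56.8 CPM (49.6 to 64.7) in comparison cells (log2 2.56, and 3.12 in thinned cells). Enpp6 was the only 1 of 6 progenitor and differentiating progenitor markers measured that was past 1 log2 unit, beside 3.79% of all genes. Bmp4 had 0 UMIs in members and 14 in the comparison cells, too few to compare. Others of the 15 highest were Aven (log2 2.53), an inhibitor of apoptosis, Uchl1 (2.46), a ubiquitin hydrolase, Shroom1 (2.29), Chst2 (2.26), a sulfotransferase, Tubb2b (2.24), a beta-tubulin, and Mob3b (2.18). All 15 were higher in each barcode number by the rule that named them. Tubb2b was seen in few cells, 9 members (15.5%, 7.35 to 27.4) and 63 comparison cells (10.6%, 8.22 to 13.3). Its highest count in a member was 21 UMIs.

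**Figure D2:**
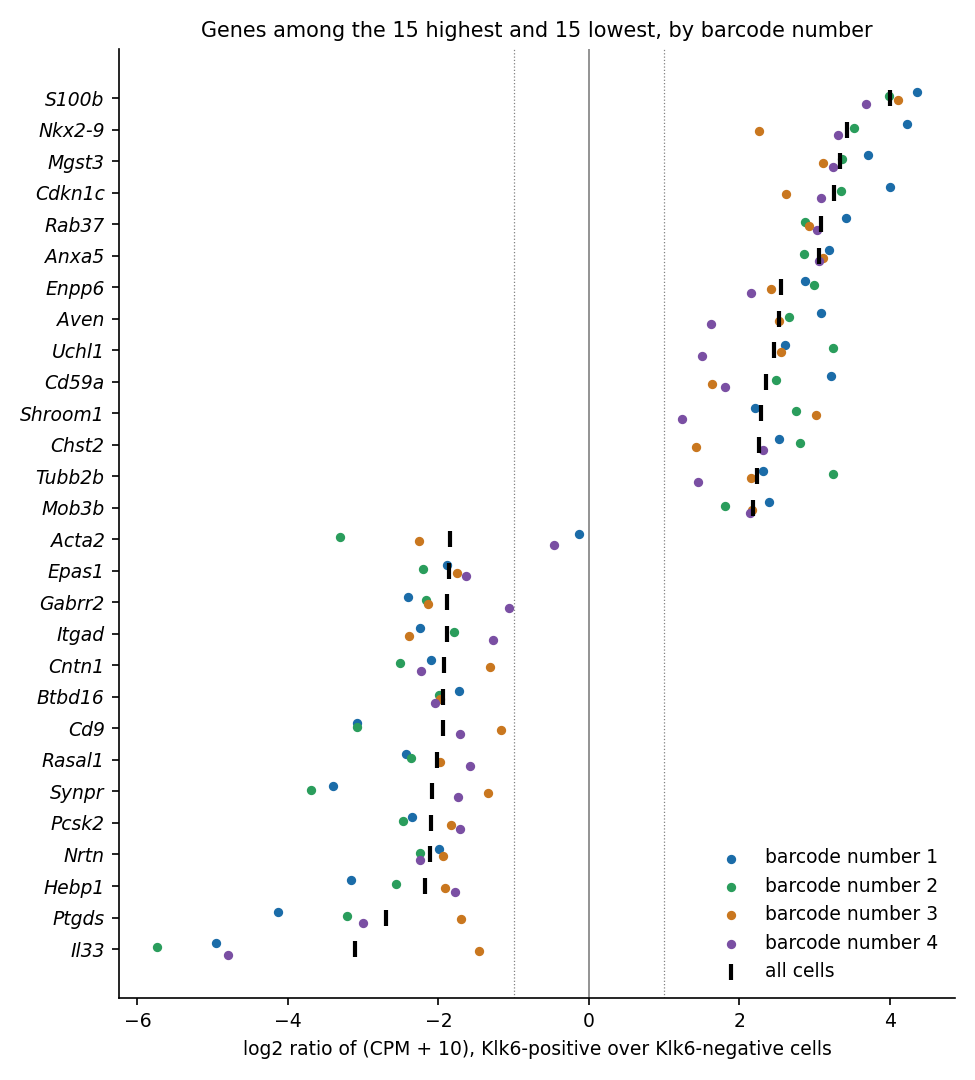
Genes among the 15 with the highest (14 drawn) and the 15 with the lowest (14 drawn) log2 ratio of (CPM + 10) between Klk6-positive and Klk6-negative MOLs, among genes with 1 sign in all 4 barcode numbers. Coloured points are barcode numbers, black ticks are all cells, and dotted lines mark 1 log2 unit; S100b lies highest at 4.0 and Il33 lowest at -3.10.

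Ptgds and Il33 headed the lower genes. Ptgds, the synthase of prostaglandin D2, was at 4108 CPM (3936 to 4285) in members and 26569.8 CPM (26409.6 to 26731) in comparison cells (log2 -2.69). In barcode numbers 1 to 4 Ptgds was 1642, 3025, 8229 and 2826 CPM in members and 28996, 28216, 26869 and 22792 CPM in comparison cells. Il33, a cytokine held in the nucleus and released from damaged cells, was at 47.7 CPM (30.8 to 70.4) against 486 CPM (464 to 508) (log2 -3.10). In barcode numbers 1 to 4 Il33 was 7.82, 0, 154 and 6.57 CPM in members and 540.1, 523, 442 and 449 CPM in comparison cells. Number 3 was the highest of the members for both genes and still lay below all 4 numbers of the comparison cells. In thinned cells the log2 ratio was -2.35 for Ptgds and -3.40 for Il33.

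Cd9, a tetraspanin, was at 391 CPM (339 to 448) against 1526 CPM (1488 to 1565) (log2 -1.94, and -1.93 in thinned cells). Hebp1, a haem-binding protein, was at 43.8 against 234 CPM (log2 -2.18). Nrtn, the trophic factor neurturin, Pcsk2, a prohormone convertase, Btbd16 and Epas1, a hypoxia-inducible transcription factor, had 0 UMIs in all 58 members. Set against a floor of 3 counts over the members (5.72 CPM), they were at least 5.78-fold, 5.74-fold, 4.94-fold and 4.59-fold lower. These genes met the UMI minimum through the comparison cells alone, so being lower in every barcode number followed from counts there. Synpr, Rasal1, Cntn1, Itgad, Gabrr2 and Acta2, also among the 15 lowest, had log2 ratios from -2.09 to -1.85. Acta2 is a marker of smooth muscle and varied among the comparison cells, with 0.958, 89.3, 70.1 and 12.8 CPM in numbers 1 to 4.

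The leading genes were more different in cells rich in Klk6 than in cells with a single UMI. S100b was at 100.2 CPM (90.6 to 111) without Klk6, 365 CPM (274 to 477) with 1 UMI, 899 CPM (709 to 1123) with 2 to 4 and 2714 CPM (2528 to 2910.1) with 5 or more. Anxa5 was at 47.4, 47.4, 187 and 763 CPM over the same 4 classes, and Mgst3 at 27.5, 33.8, 93.4 and 622 CPM. With 1 Klk6 UMI, both had counting intervals that overlapped those of cells without Klk6. Enpp6, with 56.8, 250.3, 315 and 471 CPM, and S100b differed in this respect. For both, the summed cells with 1 UMI already stood above cells with none.

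The lower genes ran the other way over the classes. Ptgds was at 26569.8 CPM (26409.6 to 26731), 12238 CPM (11681 to 12816), 3093 CPM (2731 to 3488) and 278 CPM (221 to 346), which is 95.5-fold lower at 5 or more UMIs than at 0. Within barcode numbers 1 to 4, Ptgds in cells with 5 or more Klk6 UMIs was 244, 205, 353 and 285 CPM. Cd9 was at 1526, 1042, 198 and 117 CPM over the same classes. Opalin, which helped to choose the cells, was at 1886, 1407, 257 and 30.9 CPM. Il33 gave 1 UMI in the 27 cells with 5 or more. Against cells without Klk6, those 27 cells had 248 of the same 7015 genes higher by 1 log2 unit (3.54%) and 360 lower (5.13%). The 20 cells with 1 Klk6 UMI, which hold 147812 UMIs in all, had 124 higher (1.77%) and 456 lower (6.5%). The 27 cells hold 291079 UMIs, so the counts of the 2 classes rest on unlike depth. The part of counting error in them was not tested. The median over all genes was 0.007 for the 27 cells and -0.003 for the 20.

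**Figure D3:**
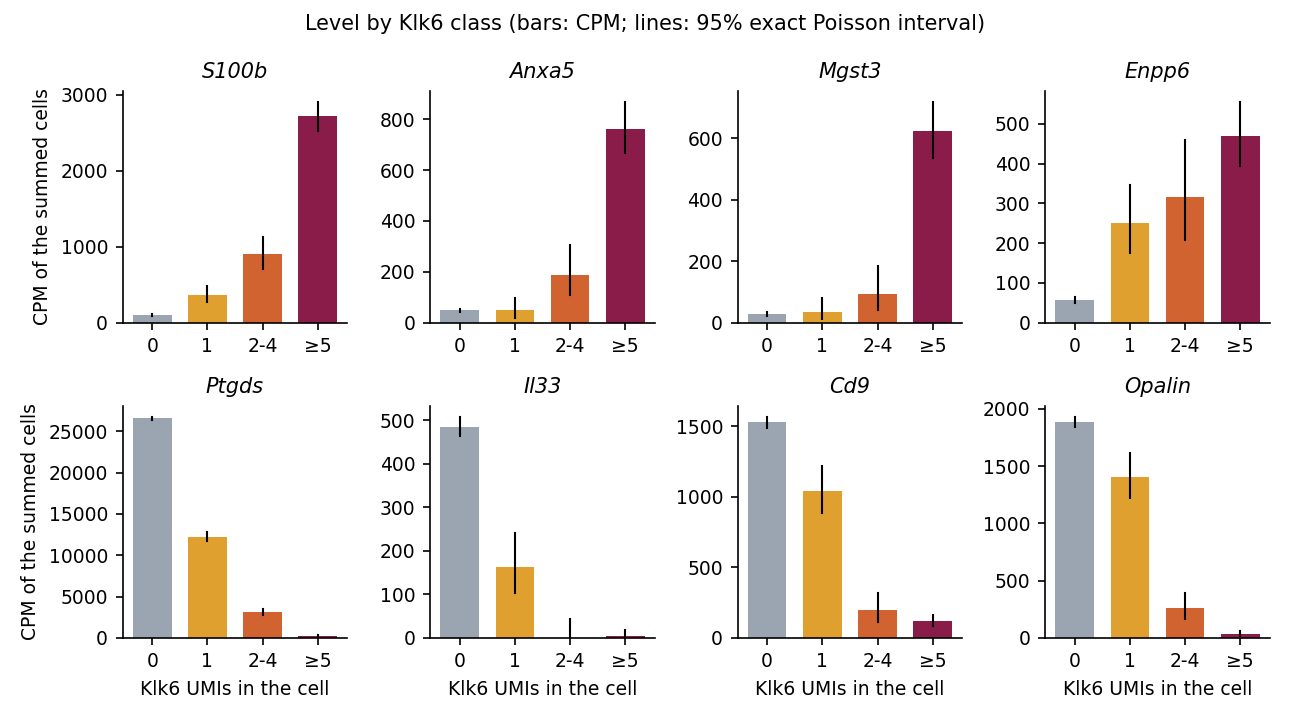
Level of 8 genes (CPM of the summed cells, y axes from 0 on separate scales) in MOLs with 0, 1, 2 to 4 and 5 or more Klk6 UMIs (n = 596, 20, 11 and 27 cells). Black lines are 95% exact Poisson intervals. The upper row is higher and the lower row lower with more Klk6, and Opalin is a gene of the rule that chose the cells.

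The same split was seen cell by cell. Ptgds and Il33, chosen after their values were seen, were summed per cell, and so were Anxa5, Hopx, Mgst3, Cd59a, S100b and Tmeff2, genes described with Klk6 in oligodendrocytes of other regions. In the 27 cells with 5 or more Klk6 UMIs, Ptgds and Il33 ran from 0 through a median of 276 to 603 CPM. In the 596 comparison cells they ran from 139 through 28742 to 106157 CPM, and 8 of these cells were at or under the highest of the 27. A level under 2000 CPM was found in all 27 cells with 5 or more Klk6 UMIs, 9 of 11 with 2 to 4, 3 of 20 with 1 and 21 of 596 with 0 (3.52%). The 21 cells had 574, 1363 and 3274 CPM of the 6 genes as their lowest, median and highest, against a median of 669 CPM in all comparison cells and 4427 CPM in the 27. These 21 cells were thus low in Ptgds and Il33 without Klk6, with a median of the 6 genes between those of the comparison cells and of the 27. Tmeff2 alone stood at 512, 523, 598 and 674 CPM in the comparison cells of barcode numbers 1 to 4. It made up most of the sum there, and which of the 6 genes set the level in the 21 cells was not tested.

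**Figure D4:**
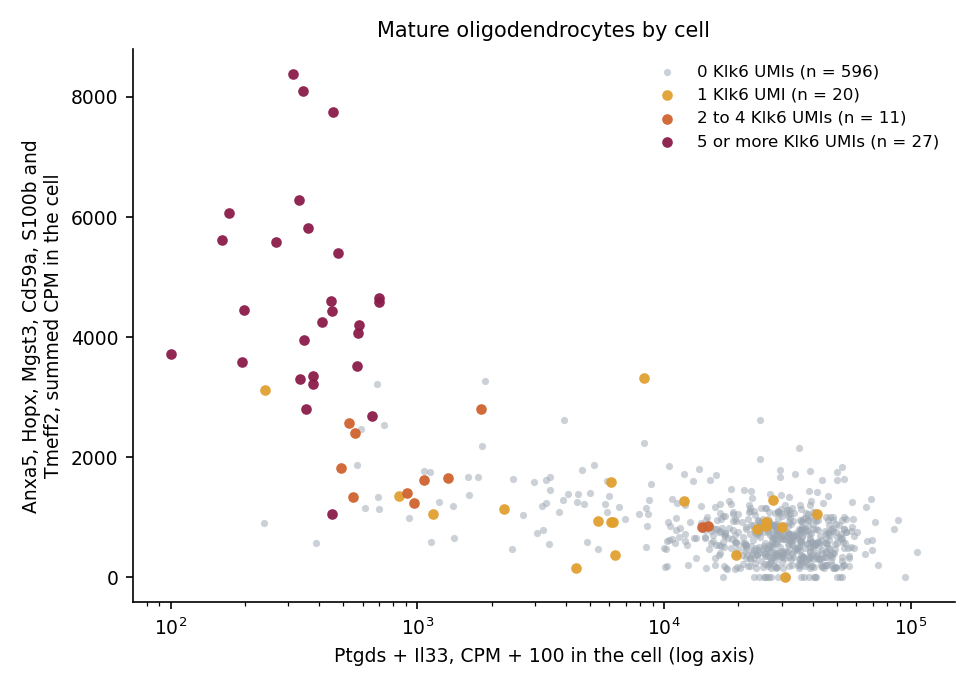
Each point is 1 MOL, coloured by its Klk6 UMIs. The x axis is the summed CPM of Ptgds and Il33 plus 100 on a log scale and the y axis the summed CPM of 6 genes described with Klk6 elsewhere; the 27 cells with 5 or more Klk6 UMIs all lie at or below 603 CPM on the first measure, where 8 of 596 comparison cells lie.

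MOLs were also placed by their whole profile. Each cell was thinned to 2000 UMIs, the 2000 most variable genes without Klk6, Mal, Ermn and Opalin were reduced to 30 principal components, and the 15 nearest cells were found. Members made up 50.9% of the neighbours of members on average and 3.06% of those of comparison cells, and they were 8.87% of all MOLs. Of the neighbours of cells with 5 or more Klk6 UMIs, 80.7% were members and 64.0% were again such cells, which were 4.13% of all. Of the neighbours of the 20 cells with 1 UMI, 14% were members, and 15 of these 20 had no neighbour with 5 or more. The neighbours crossed barcode numbers: between 45.9% and 53.3% of the neighbours of cells with 5 or more were such cells from another number. A single comparison cell had most of its neighbours among them, with 10 UMIs of S100b and 4 of Ptgds among its 8112, but 0 of Mgst3 and 6 of Opalin.

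The leading genes were followed in the barcode number that had not chosen them. The 15 genes with the highest ratio in 3 barcode numbers were higher in the number left out in 15, 15, 14 and 15 of 15 cases, for numbers 1 to 4. Their median log2 ratio there was 2.60, 2.86, 2.26 and 2.03, against medians over all genes between -0.02 and 0.01. The 15 lowest were lower in 15, 15, 15 and 13 of 15. The members of the number left out were chosen by the same Klk6 rule. The numbers are also parts of 1 pooled matrix, so this adds no independent support.

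The genes most like Klk6 from cell to cell were found in the same MOLs. Over the 654 thinned MOLs and 4500 genes, S100b was the gene whose count went most with that of Klk6 (Spearman's rho 0.48), followed by Anxa5 (0.40), Enpp6 (0.37), Mgst3 (0.35) and Trf (0.34), which encodes transferrin, an iron carrier. Ptgds (-0.36) and Cd9 (-0.30) stood at the other end. These cells share libraries, the count of Klk6 is 0 in most, and they are the cells that gave the ratios above, so the order adds no independent support.

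Genes named elsewhere for subtypes of mature oligodendrocytes were divided. Of the list described with Klk6, 4 of 5 genes measured were higher by 1 log2 unit (Anxa5, Mgst3, Cd59a and S100b), beside 1.97% of all genes. The list median was 3.05, Tmeff2 was at 602 against 582 CPM, and Hopx had too few UMIs. The list was compiled with results of these data known, so that its count is not independent evidence. Of 12 genes described for the other, grey matter subtypes, 3 were lower (Ptgds, Il33 and Jph4, a junctional protein) and 3 were higher. Beside them, 1.82% of all genes were lower and 1.97% higher. The 3 higher were Apod, a lipid carrier, at 5858 CPM (5653 to 6069) against 2216 CPM (2169.7 to 2263), Anln, an actin-binding protein, at 587 against 148 CPM, and Hapln2, a hyaluronan link protein of the node of Ranvier, at 1252 against 428 CPM. In cells with 1 Klk6 UMI these 3 genes were at 3728, 365 and 954 CPM, between the levels of the comparison cells and of all members.

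Of 17 myelin protein genes outside the rule, 2 were higher in members and 1 was lower, beside 1.97% and 1.82% of all genes. The list median was -0.02. Pmp22, a protein of peripheral myelin, was at 641 CPM (574 to 713) in members against 149.9 CPM (138 to 162) (log2 2.02), and Gjb1, the gap junction protein connexin 32, at 909 CPM (829.5 to 995) against 329 CPM (311 to 347) (log2 1.44). Pmp22 was 813, 743, 449.7 and 618 CPM in barcode numbers 1 to 4 of the members and 146, 139, 166 and 147 CPM in the comparison cells. Tspan2, a tetraspanin of myelin, was at 669 against 1428 CPM (log2 -1.08), but passed 1 log2 unit neither in thinned cells (-0.91) nor by the mean CPM of each cell (-0.88). In thinned cells Pmp22 was at 1.81 and Gjb1 at 1.19. Mbp, Mog, Mag, Mobp, Cnp and Cldn11 had log2 ratios from -0.18 to 0.14.

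Cholesterol synthesis genes leaned higher in members. Of 17 measured, 16 had a positive ratio against 52.6% of all genes. By 1 log2 unit 4 were higher, beside 1.97% of all genes, and none was lower, beside 1.82% of all genes. The list median was 0.77, or 0.74 in thinned cells. Hmgcs1, the synthase of HMG-CoA, was at 1176 CPM (1085 to 1273) in members and 474 CPM (452 to 496) in comparison cells (log2 1.29). In barcode numbers 1 to 4 it was 1438, 827, 933 and 1413 CPM against 448, 431, 484 and 518 CPM, with no overlap. Sqle, which makes squalene epoxide, was at 349 CPM (300.1 to 403) against 109 CPM (98.7 to 119.5) (log2 1.60). Idi1, an isomerase of the pathway, was at 309 against 131 CPM (log2 1.17).

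More of the group were higher in cells with 5 or more Klk6 UMIs, without a step in every class. Hmgcs1, for example, had medians of 2, 3.5, 3 and 13 UMIs per cell over the 4 classes, in cells of unlike depth. In cells with 5 or more Klk6 UMIs, 11 of the 17 were higher by 1 log2 unit than without Klk6, beside 3.54% of all genes, and Sqle reached 491 CPM against 109. With 1 UMI, Sqle was at 108 CPM and Idi1 at 149 CPM, near the 131 CPM of cells without Klk6. The gene with a ratio under 0 was Insig1, which retains the sterol sensor in the endoplasmic reticulum, at 177 against 185 CPM. Srebf2, the transcription factor of the pathway, was at 51.5 against 39.1 CPM. In the list of other myelin lipid genes 1 of 16 was higher and none was lower, beside 1.97% and 1.82% of all genes. It was Elovl5, a fatty acid elongase (log2 1.06, and 0.90 without barcode number 4 and 0.79 in thinned cells).

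**Figure D5:**
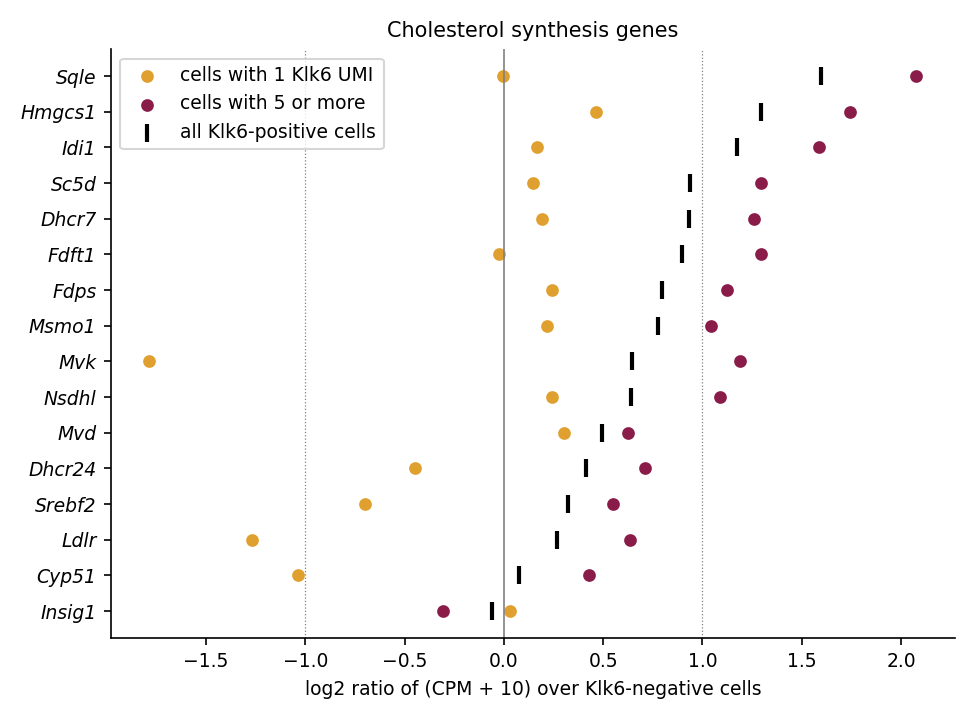
Log2 ratio of (CPM + 10) over Klk6-negative MOLs for 16 cholesterol synthesis genes, for all members (ticks), cells with 1 Klk6 UMI and cells with 5 or more (points). Dotted lines mark 1 log2 unit; 10 of the genes drawn pass it in cells with 5 or more UMIs, and genes with few UMIs scatter widely in the 20 cells with 1.

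Proteases and their partners were sparse. Of a list of 17 kallikreins, protease inhibitors and protease-activated receptors, Klk6 included, 3 others had enough UMIs. Of these 1 was higher, beside 1.97% of all genes. It was Serpinb1a, an inhibitor of neutrophil proteases, at 783 CPM (709.6 to 863) against 268 CPM (253 to 285) (log2 1.51). Among 8 matrix and perineuronal net genes Hapln2 and Chst2 were higher, beside 1.97% of all genes. Adamts4, a protease of the net, was at 345 against 315 CPM. Of 15 cytoskeletal genes 4 were higher, beside 1.97% of all genes, namely Anln, Tppp3, a tubulin-binding protein, Gsn, which severs actin, and Map1b. Gsn (log2 1.02) was at 0.96 without barcode number 1 and just under 1 without number 4, and Map1b (1.01) was at 0.97 without number 1. In thinned cells Tppp3 was at 0.88 and Map1b at 0.84, both under 1. Ldhb, a subunit of lactate dehydrogenase, was at 513 against 125 CPM. It was the only 1 of 9 genes of lactate, glucose and iron handling past 1 log2 unit, beside 3.79% of all genes.

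No lineage transcription factor passed 1 log2 unit among 15, beside 3.79% of all genes. Sox10, which drives the lineage, was at 175 against 172 CPM and Olig2 at 70.5 against 145 CPM. In cells with 5 or more Klk6 UMIs, 3 of the 15 were lower, beside 5.13% of all genes, namely Olig2 (log2 -1.18), Zfp488 (-1.11) and Klf13 (-1.34). Of 13 receptors for metabolic hormones listed, 8 had enough UMIs. None of the 8 passed 1 log2 unit between members and comparison cells, beside 3.79% of all genes. Of 10 channels, connexins and transporters only Gjb1 did, beside 3.79% of all genes. Of 7 immune genes, 2 were lower, beside 1.82% of all genes (Il33 and Cd63, a tetraspanin of late endosomes at 221 against 754 CPM). Of 11 glucocorticoid and fasting response genes 1 was lower, beside 1.82% of all genes. It was the metallothionein gene Mt1, at 907 against 1874 CPM (log2 -1.04, and -0.94 and -0.96 without barcode number 1 or 2). In cells with 5 or more Klk6 UMIs 4 were lower, beside 5.13% of all genes, namely Sgk1, Per1, Mt1 and Mt2. Of 6 immediate early genes Jun (log2 -1.13, and -0.93 without barcode number 1 and -0.95 in thinned cells) and Dusp1 (-1.40, from 3 UMIs in members) were lower, beside 1.82% of all genes. All 6 had negative ratios, while 52.6% of all genes had a positive one.

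The difference between barcode numbers in Hspa1a was seen in members too, at 0, 0, 154 and 171 CPM in numbers 1 to 4. Cells with 5 or more Klk6 UMIs gave 0, 0, 0 and 2 UMIs of Hspa1a in these numbers, and cells with 1 Klk6 UMI gave 0, 0, 23 and 24, with up to 16 in 1 cell, so nearly all of the members' Hspa1a lay in the latter. In number 4 this was 21.9 CPM (2.65 to 79.1) against 586 CPM (375 to 872). In the comparison cells, 13 heat shock genes summed to 7848, 7679, 11431 and 11312 CPM. In cells with 5 or more Klk6 UMIs they summed to 5032, 6118, 6770 and 7336 CPM, so each number was lower than the same number of the comparison cells. Between members and comparison cells none of 11 heat shock genes passed 1 log2 unit, beside 3.79% of all genes. In cells with 5 or more Klk6 UMIs 2 were lower, beside 5.13% of all genes, namely Hspa1a (log2 -3.21) and Hsp90aa1 (-1.07). What sets the numbers apart was not tested, since no label ties them to a condition.

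MOLs with Ctps, a synthase of CTP, or Shisa8, a membrane protein, overlapped with these cells. A UMI of either was seen in 42 of 58 members (72.4%), in 25 of the 27 with 5 or more Klk6 UMIs and in 233 of 596 comparison cells (39.1%), and after thinning in 39.7% of members and 17.3% of comparison cells. Shisa8 was at 244 CPM (204 to 290.1) against 97.7 CPM (88.2 to 108) (log2 1.24), and Ctps at 45.8 CPM (29.3 to 68.1) against 76.7 CPM (68.3 to 85.8) (log2 -0.64). Of the 24 Ctps UMIs of the members 19 came from 1 cell of barcode number 4. The log2 ratio of Ctps was -3.02, -2.85, -1.72 and 0.47 in barcode numbers 1 to 4, -0.04 in thinned cells and -2.33 without number 4. In cells with 5 or more Klk6 UMIs, Shisa8 was at 371 CPM and Ctps at 6.87 CPM. Comparison cells with Ctps or Shisa8 had S100b at 104 CPM (90.1 to 120) and those with neither at 96.5 CPM (83.6 to 111).

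Markers of 12 other cell types were summed as a check on mixed cells. The 5 markers of differentiating progenitors gave 431 CPM (376 to 491) in members and 114 CPM (103 to 125) in comparison cells. Enpp6 alone made up most of the members' sum. Of the 5 markers 2 were higher in members, and Bmp4 and Rassf10 had 0 UMIs there. Mural cell markers were lower in members, at 11.4 CPM (4.20 to 24.9) against 51.7 CPM (44.9 to 59.3), with Rgs5 and Higd1b at 0. They ran from 0 to 20.1 CPM over barcode numbers of the members and from 5.75 to 109 CPM over those of the comparison cells. Vascular and leptomeningeal markers (55.3 against 121 CPM) and tanycyte markers (21.0 against 44.7 CPM) were lower as well, and their ranges over barcode numbers overlapped too. The part of such cells in the results above was not tested. The lists for progenitors, astrocytes, ependymocytes, microglia, neurons, endothelium, pars tuberalis and red cells had overlapping intervals. Microglial markers, for example, stood at 124 CPM in members and 126 CPM in comparison cells.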

How the data were processed

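Single cells of the ME were profiled with the 10x 3′ V2 chemistry. The authors aligned the reads with Cell Ranger 2.0 to mm10 and deposited 1 pooled matrix of UMI counts per gene and cell, with 29288898 UMIs in 5982 cells. The deposited counts were not normalised, and no column was left unused. Its cells carry no map to the 32 sample records, so the matrix was treated as 1 sample and no test was run. Members and gene lists were chosen with earlier results of these data known.

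UMIs were summed over cells of a group and scaled to CPM. Log2 ratios used a pseudocount of 10 CPM, over genes with at least 50 UMIs in both groups together, and 1 log2 unit as the mark. Genes named were those of the rule, of 19 lists, the 15 at each end with 1 sign in all 4 barcode numbers, and the 5 most like Klk6 by Spearman's rho among genes seen in at least 5% of MOLs. Other genes are named as the markers or ends of a range. Poisson and Clopper-Pearson intervals are exact and cover counting error only. Cells were thinned to 2000 UMIs (seed 0). No cell was removed. Scrublet, run per barcode number in scanpy 1.11.5, called 50 cells (0.836%) as doublets, which were kept. Neighbours were found with scikit-learn 1.9.0, and intervals with scipy 1.17.1 and numpy 2.4.6. The ratio and thinning steps were tested on simulated data. Alternatives changed the depth, pseudocount, UMI minimum, scaling, weighting of cells, Klk6 and marker thresholds, doublets and barcode numbers. Cells of at least 8000 UMIs, Klk6 at 5 or more and Klk6 at exactly 1 UMI were added after seeing the data. Promoter windows and gene symbols came from RefSeq and GENCODE vM21 tables of the same build, and 27645 of 27998 genes matched a symbol. Some genes are not reported here by name, but they stay in the counts over lists and over all genes.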

Additional observations from a re-analysis of the deposited data

Results flagged for a closer look

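Jun, an immediate early transcription factor gene, stood apart in barcode number 1, where its log2 ratio between members and comparison cells was -2.35 and was farther from the other 3 numbers than Dixon's test allows for 4 values. It was the only set of 59 compared with a value apart, and chance marks about 1 set in 20. Klk6 UMIs were also seen in 46 cells outside the MOLs, which are in no comparison above, with 1 UMI in 44 of them and 2 in the other 2.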

How the results depend on the processing

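The number of higher genes (138) was 83 in thinned cells, 229 and 53 with pseudocounts of 2 and 50 CPM, 63 with at least 200 UMIs and 248 with Klk6 at 5 or more UMIs. The number of lower genes (128) was 304 and 24 with those pseudocounts, 62 with at least 200 UMIs, 194 with scaling without the 20 most abundant genes, 243 with Klk6 at 2 or more UMIs, 360 with Klk6 at 5 or more, 456 with Klk6 at exactly 1 and 196 in cells of at least 8000 UMIs. The share of members (8.87%) was 23.7% in cells of at least 8000 UMIs, 5.35% after thinning, and 5.81% and 4.13% with Klk6 at 2 and 5 or more UMIs. Leaving out 1 barcode number in turn gave 119 to 146 higher genes, 127 to 174 lower genes and shares of 8.44% to 9.28%. Fewer genes could be compared in thinned cells (3435), with at least 200 UMIs (3087) and in deep cells (3955). For the other changes the cause was not tested.

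Of 53 named genes past 1 log2 unit, 49 had the same sign under every alternative and 32 stayed past it under every planned one. The other 4 turned in the 20 cells with exactly 1 Klk6 UMI, where the ratio was -0.0021 for Anxa5, -0.0063 for Sqle, -0.47 for Shisa8 and -1.54 for Tubb2b. In deep cells (32 members, 103 comparison cells) the ratio was 4.08 for S100b, 3.31 for Anxa5, -3.72 for Ptgds, -3.64 for Il33 and 1.02 for Hmgcs1. No paired analysis was possible because no test was run and the barcode numbers stand for no known sample; ratios within each number are given in the results. Low genes are limited by depth, since 1 UMI over the members is worth 1.91 CPM, and fasted and refed cells cannot be told apart.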
